A study of Mus musculus with 7 samples.

Results

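Hoxa5, Hoxa7, Hoxa9, Hoxc6, Hoxc9, Hoxd4, Hoxd8 and Hoxd9 are 8 genes of 3 mouse Hox clusters. They were chosen as the probes whose symbol in the array's gene table was one of these names, which gave 10 probes for 8 genes, of 25697 probes and 16593 gene symbols on the array. Hoxa9 had 3 probes, of which 1 was above background on any array, and each of the other genes had 1 probe. The array listed 20 other genes of the Hoxa, Hoxc and Hoxd clusters and 10 Hoxb genes.

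Hox genes encode homeodomain transcription factors that give cells their position along the head to tail axis of the embryo. Within a cluster the genes stand in a row, and their paralogue numbers run along it: low-numbered genes are switched on earlier and further forward in the body, high-numbered genes later and further back. In pluripotent cells the clusters are held largely silent under Polycomb chromatin marks, and retinoic acid, Wnt and FGF signals and the caudal factors (CDX) open them as the trunk and tail form.

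Total RNA of 7 mouse pluripotent cell lines was measured on bead arrays from Illumina, and each line had 1 array. The 6 epiblast stem cell (EpiSC) lines were OG2.2, OG2.1, E3, E5, T9 and C1a1. EpiSCs resemble the epiblast of the implanted embryo. The 1 embryonic stem cell (ESC) line was R1, a widely used mouse line whose cells stand nearer to the blastocyst. The labels give every line's name also under a tag reading spot14 gfp, without saying what the tag denotes, and they give no genotype, strain, passage, treatment or culture medium for any line. As each line was sampled once, p-values measure the spread between lines, with any culture or array difference included, and R1 as the lone ESC line cannot be told apart from ESCs in general. In such bulk RNA, a gene active in fewer cells and a gene with less RNA per cell cannot be told apart.

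All 5 EpiSC and shared pluripotency markers examined were above background on every EpiSC array. On R1 4 of the 5 were, and the one that was not was Fgf5 (4.41), a marker of EpiSCs. The 5 naive markers were all above background on R1, and on 0 to 2 of the 5 in each EpiSC line. A probe counted as above background where its deposited detection p was under 0.01. Median signals were 123 to 131 per array, and 41.4% to 45.0% of the probes were above background. Levels are given as normalized log2 intensity, on which 1 unit is a doubling of corrected signal, and a level of about 5.5 marked the dimmest probe detected on an array (5.38 to 5.70). Brightness differs between probes for reasons of their own, so levels are compared between lines and not between genes.

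Promoter sequences were available in RefSeq (GRCm38.p6) for 6 of the 8 genes, and Hoxc6 and Hoxc9 were the other 2. The 250 bases before the start of Hoxa5, Hoxa7 and Hoxd4 are shown, since these were the genes with a promoter entry whose levels differed most between lines. They are read 5′ to 3′ in the direction of the gene, with motif matches in capitals. Hoxa5 is at chr6:52204588-52204837 on the minus strand, Hoxa7 at chr6:52218574-52218823 on the minus strand, and Hoxd4 at chr2:74721728-74721977 on the plus strand.
Hoxa5: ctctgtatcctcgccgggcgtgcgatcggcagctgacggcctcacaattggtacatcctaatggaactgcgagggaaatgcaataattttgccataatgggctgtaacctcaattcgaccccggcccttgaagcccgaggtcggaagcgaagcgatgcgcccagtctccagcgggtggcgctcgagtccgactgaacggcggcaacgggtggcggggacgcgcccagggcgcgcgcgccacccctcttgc
Hoxa7: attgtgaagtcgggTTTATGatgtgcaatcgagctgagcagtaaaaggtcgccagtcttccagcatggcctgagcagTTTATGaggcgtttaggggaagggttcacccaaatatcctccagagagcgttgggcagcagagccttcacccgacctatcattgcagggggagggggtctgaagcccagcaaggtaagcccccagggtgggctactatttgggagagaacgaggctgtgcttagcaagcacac
Hoxd4: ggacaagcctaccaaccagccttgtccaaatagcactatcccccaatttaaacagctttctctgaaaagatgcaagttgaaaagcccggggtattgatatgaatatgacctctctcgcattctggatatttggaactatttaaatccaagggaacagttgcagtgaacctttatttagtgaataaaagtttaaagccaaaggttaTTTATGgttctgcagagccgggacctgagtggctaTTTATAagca

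Of these, the Hoxa5 window was rich in CpG (63.6% G and C, CpG observed over expected 1.11), against medians of 52.4% and 0.374 over 32841 RefSeq windows of the same length. Hoxd4 lay at the other end, with 40.4% G and C and a CpG ratio of 0.294, and Hoxa7 had 54.8% and 0.386. Hoxa7 held the CDX motif TTTATG at -236 to -231 and at -173 to -168, counted from the gene's start. Hoxd4 held it at -45 to -40, and it held TATAAA, the TATA box, on the opposite strand at -10 to -5, where its capitals therefore read TTTATA. On both strands, TTTATG occurs in 10.8% of all windows and TATAAA in 12.4%. The HOX-PBX site TGATTNAT (2.83% of windows) was found in none of the 6 windows, and Hoxa5, Hoxa9, Hoxd8 and Hoxd9 had no match to any of the 3 motifs. These matches are a description of the letters, and the motifs were chosen with the sequences in view.

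In OG2.2 all 8 genes were above background. In OG2.1 there were 3 of the 8 (Hoxa5, Hoxc6 and Hoxc9), in R1 there were 2 (Hoxa5 and Hoxa7), and in E3, E5, T9 and C1a1 there were 0 each. Of the 9213 genes tested, 83.6% were above background on OG2.2, 83% on OG2.1, 83.3% on E3, 80.1% on E5, 83.5% on T9, 87.3% on C1a1 and 80.2% on R1. The genes tested had to be above background on at least 1 array, and Hoxa9, Hoxd4, Hoxd8 and Hoxd9 met this through OG2.2 alone, as 0.836% of all tested genes did. For these 4 a higher level in OG2.2 follows from that filter. Hoxa5, Hoxa7, Hoxc6 and Hoxc9 met it also through OG2.1, R1 or both.

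**Figure D1:**
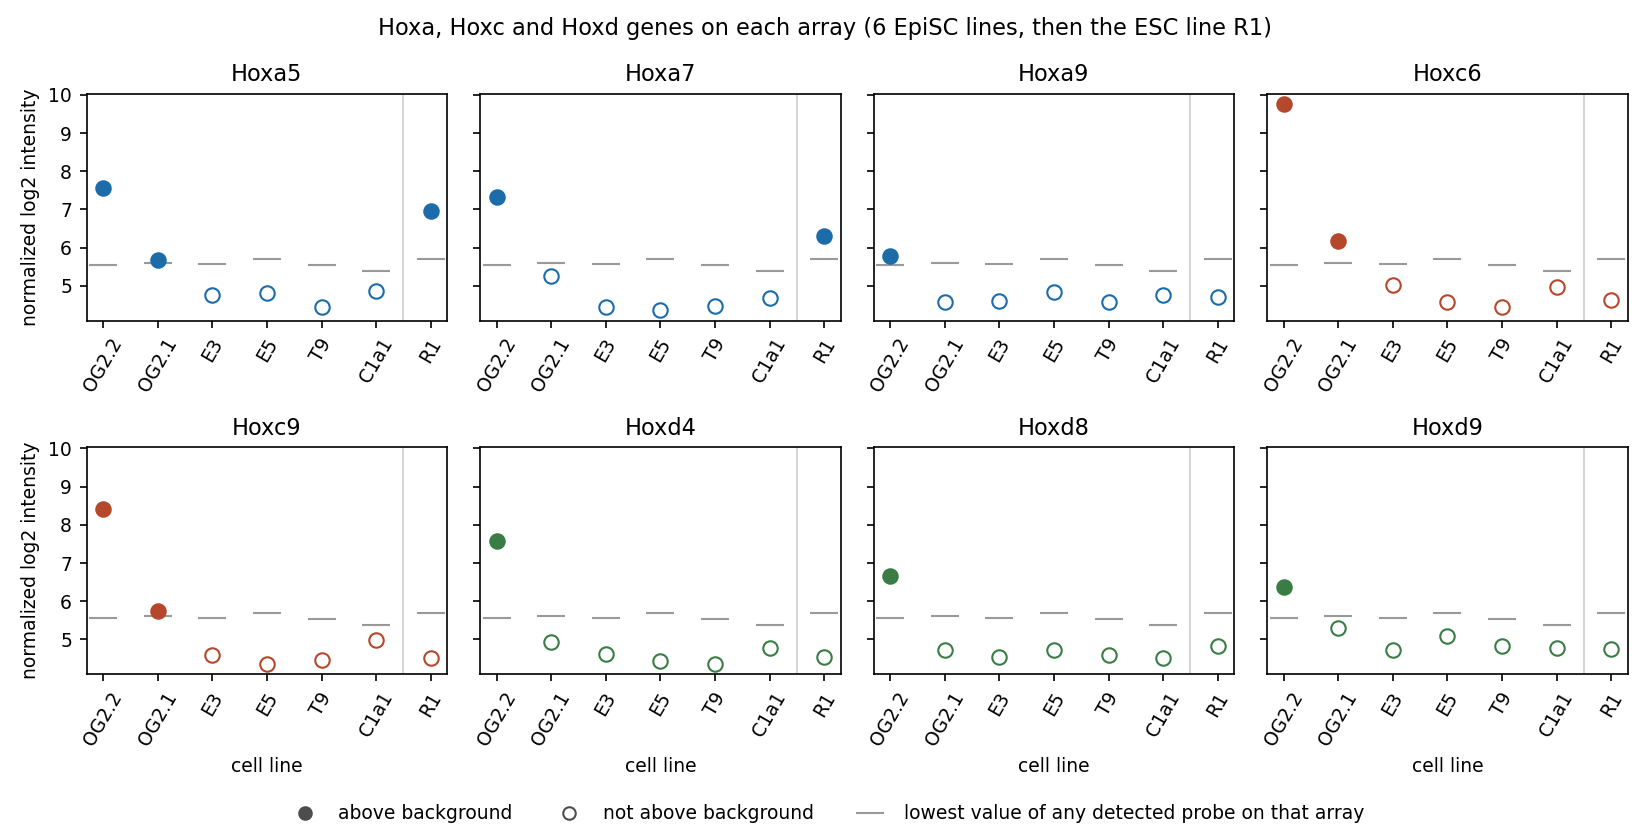
Normalized log2 intensity (vertical axis) of the 8 Hox genes on each of the 7 arrays, with 1 point per line, filled where the probe was above background, and a grey dash at the lowest value of any detected probe on that array. Hoxc6 is at 9.77 on OG2.2, and the points of E3, E5, T9 and C1a1 are open in every panel.

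The Hoxc genes gave the widest spread. Hoxc6, a gene of the thoracic trunk, was at 9.77 in OG2.2, 6.18 in OG2.1, 5.01 in E3, 4.58 in E5, 4.45 in T9, 4.98 in C1a1 and 4.62 in R1. OG2.2 stood far above all other lines, OG2.1 stood between, and the other 5 lines were below background. The deposited signal of Hoxc6 was 957 for OG2.2, 168 for OG2.1, and 106 to 126 in the remaining EpiSC lines. Hoxc9, which in the spinal cord marks thoracic motor neurons, was at 8.41 in OG2.2, 5.74 in OG2.1, 4.60 in E3, 4.36 in E5, 4.45 in T9, 4.98 in C1a1 and 4.53 in R1. Its order of lines at the top was that of Hoxc6, with OG2.1 just above its background.

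Among the Hoxa genes, R1 joined the lines with signal. Hoxa5, a gene needed for lung and for the axial skeleton around the neck, was at 7.55 in OG2.2, 5.69 in OG2.1, 4.77 in E3, 4.82 in E5, 4.44 in T9, 4.85 in C1a1 and 6.96 in R1. Hoxa7, which acts further down the trunk, was at 7.34 in OG2.2, 5.27 in OG2.1, 4.45 in E3, 4.37 in E5, 4.48 in T9, 4.68 in C1a1 and 6.30 in R1. For both genes OG2.2 was highest and R1 second, and OG2.1 came next, above background for Hoxa5 (detection p 0.00376) and not for Hoxa7 (detection p 0.0238). Hoxa9, known for its part in blood stem cells and leukaemia, was at 5.78 in OG2.2, 4.58 in OG2.1, 4.60 in E3, 4.83 in E5, 4.57 in T9, 4.76 in C1a1 and 4.71 in R1. On OG2.2, where the other 7 genes had a deposited detection p of 0, that of Hoxa9 was 0.00251. Its other probes did not reach background there, at 5.41 (detection p 0.0163) and 4.50 (detection p 0.585), so the 3 probes disagree.

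The Hoxd genes were above background in OG2.2 and in no other line. Hoxd4, a gene of the hindbrain and neck region that responds to retinoic acid, was at 7.58 in OG2.2, 4.95 in OG2.1, 4.62 in E3, 4.45 in E5, 4.36 in T9, 4.78 in C1a1 and 4.55 in R1. Hoxd8, which acts in the trunk, measured 6.65 in OG2.2, and across the other lines it lay between 4.51 (C1a1) and 4.82 (R1). Hoxd9, which acts in the trunk and the limb bud, was at 6.39 in OG2.2, 5.30 in OG2.1, 4.72 in E3, 5.09 in E5, 4.83 in T9, 4.78 in C1a1 and 4.75 in R1. OG2.1 was second for Hoxd4 and Hoxd9, in each case below background (detection p 0.0213 for Hoxd9), so that its order against the other lines carries little.

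Against the spread of genes at large, most of these 8 had a wide spread over the 6 EpiSC lines, to which OG2.2 gave the largest part. The SD over the 6 lines was 2.02 for Hoxc6 (percentile 99.7 among the SDs of 9213 genes), 1.55 for Hoxc9 (99.1), 1.22 for Hoxd4 (98.2), 1.15 for Hoxa5 (97.9) and 1.14 for Hoxa7 (97.8). Hoxd8 had 0.83 (94.2), Hoxd9 0.63 (88.2) and Hoxa9 0.47 (75.0), and the median SD of all genes was 0.327. Over the 5 lines without OG2.2, the SD was 0.68 for Hoxc6, 0.56 for Hoxc9, 0.46 for Hoxa5 and 0.36 for Hoxa7. It was 0.24 for Hoxd4, 0.24 for Hoxd9, 0.12 for Hoxa9 and 0.10 for Hoxd8. These last 4 genes passed the detection filter through OG2.2 alone, so their spread over the 6 lines follows in part from that filter.

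The first comparison set the 6 EpiSC lines against R1. None of the 8 genes passed the test: limma called 0 of 8, where it called 15.2% of all genes at an adjusted p under 0.05 (7.1% higher and 8.11% lower in EpiSCs), and 0 of 8, against 29.1% of all genes, had an unadjusted p under 0.05. Hoxa5 averaged 5.35 ± 1.15 in EpiSCs (SD, n = 6) against 6.96 in R1, a difference of -1.60 (SE 1.00, limma adjusted p = 0.340). Hoxa7 averaged 5.10 ± 1.14 in EpiSCs against 6.30 in R1, a difference of -1.20 (SE 0.99, limma adjusted p = 0.478). Hoxc6 averaged 5.83 ± 2.02 in EpiSCs, with 2 of the 6 lines above background, and was not above background in R1. The difference was 1.21 (SE 1.73), and no fold bound is given, since the EpiSC average includes lines below background. The other 5 differed by 0.14 to 0.90, with limma adjusted p between 0.660 and 0.922. The median difference was 0.29 over the 8 genes and 0.05 over all genes.

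A further fit left out OG2.2 with its high levels already seen, so a lower average of the remaining EpiSC lines follows in part from that choice. OG2.2 moved the values of all 3 clusters. Without it, the remaining 5 EpiSC lines were lower than R1 in Hoxa5, with a difference of -2.04 (SE 0.44, limma adjusted p = 0.0257; 4.91 ± 0.46 in EpiSCs, SD, n = 5, against 6.96 in R1). They were also lower in Hoxa7, with a difference of -1.65 (SE 0.37, limma adjusted p = 0.0302; 4.65 ± 0.36 in EpiSCs against 6.30 in R1), at least 1.67-fold, since all 5 were below background. These 2 of 8 stand against 13% of all genes called without OG2.2 (7.1% lower and 5.94% higher in EpiSCs). None of the Hoxc and Hoxd genes was called there. Without OG2.2, Hoxc6 differed from R1 by 0.42, Hoxc9 by 0.30 and Hoxd4 by 0.09, where with OG2.2 they differed by 1.21, 0.90 and 0.58. The median difference of the 8 genes was 0.02.

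The next comparison set OG2.2 against the other 5 EpiSC lines. OG2.2 was the highest line for all 8 genes, with no overlap, as it was for 16.3% of all genes. Hoxc6 differed by 4.73 (SE 0.61, limma adjusted p = 0.161) and Hoxc9 by 3.58 (SE 0.51, limma adjusted p = 0.179). Hoxa5 differed by 2.64 (SE 0.44, limma adjusted p = 0.292), and Hoxa7 by 2.69 (SE 0.37, limma adjusted p = 0.173), at least 3.43-fold. Hoxd4 differed by 2.95 (SE 0.29, limma adjusted p = 0.114; at least 4.05-fold), Hoxd8 by 2.03 (limma adjusted p = 0.150; at least 2.13-fold), Hoxd9 by 1.44 (limma adjusted p = 0.531; at least 1.77-fold) and Hoxa9 by 1.11 (limma adjusted p = 0.531; at least 1.16-fold). None passed, and in this comparison limma called 0 of all 9213 genes (0%), with 487 (5.29%) at an unadjusted p under 0.05, of which 270 (2.93%) were higher in OG2.2. For Hoxa9, Hoxd4, Hoxd8 and Hoxd9 the detection filter had already required a high OG2.2 level. Their lack of overlap and their differences here follow from that filter and are no separate result.

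OG2.1 was one of those 5 lines, with Hoxa5, Hoxc6 and Hoxc9 above background. It was left out next with these levels already seen, so the calls below depend on that choice and are no separate test. With OG2.1 left out, limma called 14 of 9213 genes (0.152%, or 0.13% higher and 0.0217% lower in OG2.2). Higher in OG2.2 than in E3, E5, T9 and C1a1 were then Hoxc6 by 5.01 (SE 0.32, limma adjusted p = 0.0126), at least 18.6-fold, and Hoxc9 by 3.81 (SE 0.32, limma adjusted p = 0.0244), at least 7.24-fold. Hoxa5 was higher by 2.83 (SE 0.28, limma adjusted p = 0.0337), at least 4.0-fold, and Hoxa7 by 2.84 (SE 0.25, limma adjusted p = 0.0280), at least 3.45-fold. Hoxd4, which passed the detection filter through OG2.2 alone, was higher by 3.03 (SE 0.27, limma adjusted p = 0.0280), at least 4.08-fold. Not called were Hoxd8 at 2.05 (SE 0.24, limma adjusted p = 0.0763), Hoxd9 at 1.53 (SE 0.26, limma adjusted p = 0.240) and Hoxa9 at 1.09 (SE 0.25, limma adjusted p = 0.398). The lone OG2.2 array is assumed in these fits to vary as the other EpiSC lines do.

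**Figure D2:**
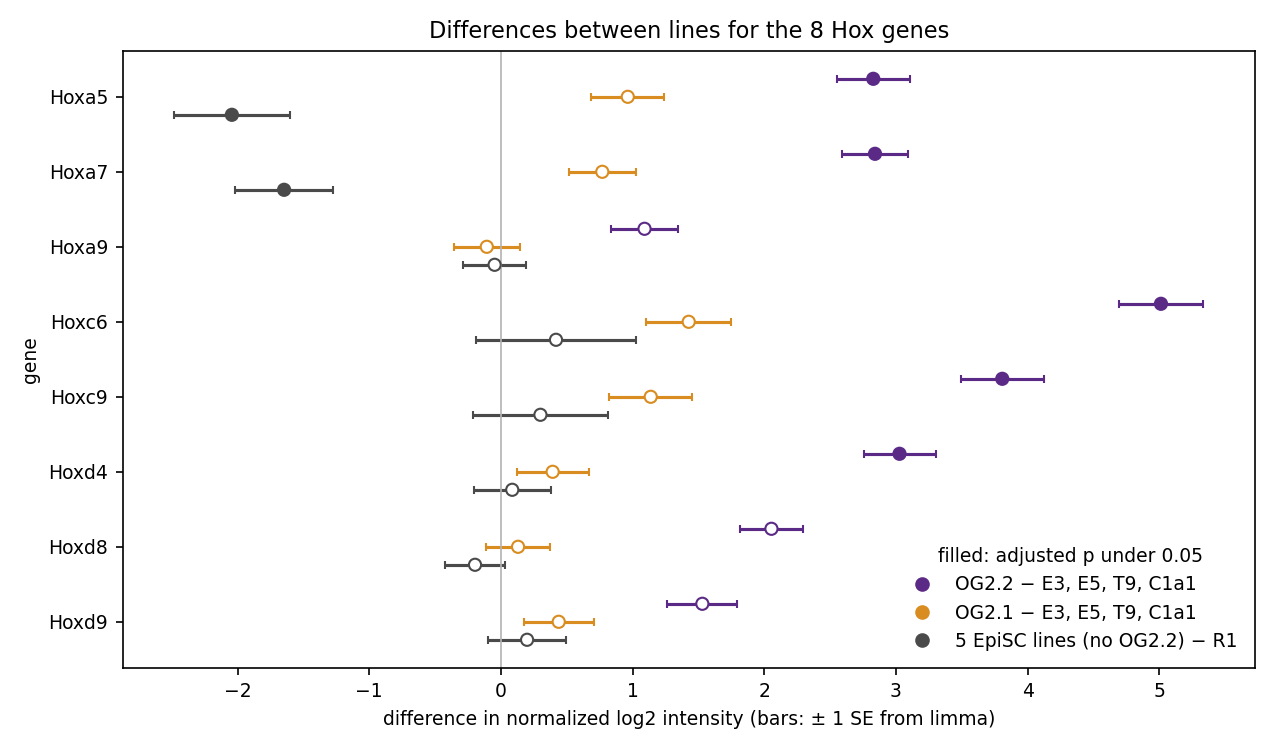
Differences in normalized log2 intensity (horizontal axis) for the 8 genes, with bars of 1 SE from limma and filled points where the adjusted p was under 0.05: OG2.2 minus E3, E5, T9 and C1a1, OG2.1 minus the same 4 lines, and the 5 EpiSC lines without OG2.2 minus R1. The OG2.2 points are the furthest right for every gene, with Hoxc6 at 5.01, and Hoxa5 at -2.04 and Hoxa7 at -1.65 are the filled points left of 0. OG2.1 or OG2.2 was left out of each fit with its levels already seen, and with both kept in, none of the 8 was called.

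OG2.1 and OG2.2 share a name stem, and together they were set against the other 4 EpiSC lines. Both lines lay above all 4 for 7 of the 8 genes, against 9.19% of all genes, and for 3 of these 7 (Hoxa5, Hoxc6 and Hoxc9) OG2.1 was itself above background. The exception was Hoxa9, where OG2.1 fell among the 4. For Hoxa7, Hoxd4, Hoxd8 and Hoxd9, OG2.1 and the 4 lines were all below background, so their order carries little. In Hoxd8, OG2.1 and E5 were both at 4.72. The share of 9.19% was counted without regard to background. Hoxd4, Hoxd8 and Hoxd9 passed the detection filter through OG2.2 alone, which required a high OG2.2 level for them beforehand. The differences were 3.22 for Hoxc6 (SE 0.85, limma adjusted p = 0.318), 2.47 for Hoxc9 (SE 0.65, limma adjusted p = 0.318) and 1.90 for Hoxa5 (SE 0.47, limma adjusted p = 0.289), with folds of at least 5.36, 2.87 and 2.1. None of the 8 was called, where limma called 7 of all 9213 genes (0.076%), 0.0217% higher and 0.0543% lower in the pair. At an unadjusted p under 0.05 there were 6 of 8, against 9.35% of all genes. Hoxd4 and Hoxd9 were among these 6, and the filter bears on them here too. Leaving out OG2.1 gives the 5 calls of the OG2.2 comparison, as the same arrays then remain.

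OG2.1 by itself, set against E3, E5, T9 and C1a1 with OG2.2 left out, gave smaller values. Hoxc6 differed by 1.43 (SE 0.32, limma adjusted p = 0.329; at least 1.55-fold), Hoxc9 by 1.14 (SE 0.32, limma adjusted p = 0.446; at least 1.14-fold) and Hoxa5 by 0.96 (SE 0.28, limma adjusted p = 0.468; at least 1.10-fold). The other 5 differed by -0.11 (Hoxa9) to 0.77 (Hoxa7), none of them above background in OG2.1. Limma called 0 of the 8 and 4 of all genes (0.0434%, with 0.0217% higher and 0.0217% lower). At an unadjusted p under 0.05 there were 4 of the 8 and 7.72% of all genes. The comparisons of OG2.2 and of OG2.1 share their 4 other lines, so their values are given side by side and no more.

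By cluster, the differences of OG2.2 from E3, E5, T9 and C1a1 were 3.81 and 5.01 for the 2 Hoxc genes, 1.53 to 3.03 for the 3 Hoxd genes and 1.09 to 2.84 for the 3 Hoxa genes. For OG2.1 against the same lines, they were 1.14 and 1.43 in Hoxc, 0.13 to 0.44 in Hoxd and -0.11 to 0.96 in Hoxa. Among these 8 genes, the 2 Hoxc genes had the largest differences in both lines. This does not extend to the clusters as wholes, since Hoxa2 differed by 1.88 in OG2.1 against the same 4 lines, more than Hoxc6, and Hoxc10 by 0.98, less than Hoxc9. R1 differed from the same 4 lines by 2.24 in Hoxa5 and 1.80 in Hoxa7, and by -0.13 to 0.22 in the other 6 genes, 5 of them Hoxc and Hoxd genes. The difference between clusters was not tested, as 2 or 3 genes of a cluster are not replicates.

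By paralogue number, the 4 genes of groups 4 to 7 (Hoxd4, Hoxa5, Hoxc6 and Hoxa7) differed between OG2.2 and the 4 lines by 2.83 to 5.01. The 4 genes of groups 8 and 9 differed by 1.09 to 3.81. Among the Hoxd genes described singly the size was smaller at each higher number, at 3.03 for Hoxd4, 2.05 for Hoxd8 and 1.53 for Hoxd9. Within Hoxc, Hoxc6 (5.01) was above Hoxc9 (3.81), and within Hoxa, Hoxa5 (2.83) and Hoxa7 (2.84) were alike within their SE and above Hoxa9 (1.09). The paralogues of group 9 were far apart, at 3.81 for Hoxc9, 1.53 for Hoxd9 and 1.09 for Hoxa9. Larger sizes at lower numbers did not extend to the clusters as wholes. Against the other 5 EpiSC lines, Hoxd3 differed by 1.52 in OG2.2, less than Hoxd4 at 2.95. Hoxa2 differed there by 2.34, less than Hoxa5 at 2.64 and Hoxa7 at 2.69. These are sizes of differences on single probes, which compress near background, and no test of their order was made.

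The whole clusters on the array showed where these genes stood. Of 28 Hoxa, Hoxc and Hoxd genes, OG2.2 had 13 with a probe above background. OG2.1 had 5, E3 had 1, E5 had 2, T9 had 1, C1a1 had 2 and R1 had 6. Of the 16593 gene symbols on the array, 7699 were above background on OG2.2, and 7382 (E5) to 8044 (C1a1) on the others. For these clusters OG2.2 thus had about the share of genes at large, and the other lines had less. In the Hoxd cluster, OG2.2 had 5 of 9 genes, Hoxd3, Hoxd4, Hoxd8, Hoxd9 and Hoxd10, which are neighbours in the paralogue order of the array's genes between Hoxd1 and Hoxd11. Hoxd11 was above background in E5 and no other line. In the Hoxa cluster, OG2.2 had Hoxa2, Hoxa5, Hoxa7, Hoxa9 and Hoxa13 of 10 genes, with Hoxa3, Hoxa4, Hoxa6, Hoxa10 and Hoxa11 not above background. In the Hoxc cluster OG2.2 had Hoxc6, Hoxc9 and Hoxc10 of 9 genes, and Hoxc10 was above background also in OG2.1 and C1a1. A probe below background leaves its gene unmeasured, so gaps in these rows are gaps in the probes.

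**Figure D3:**
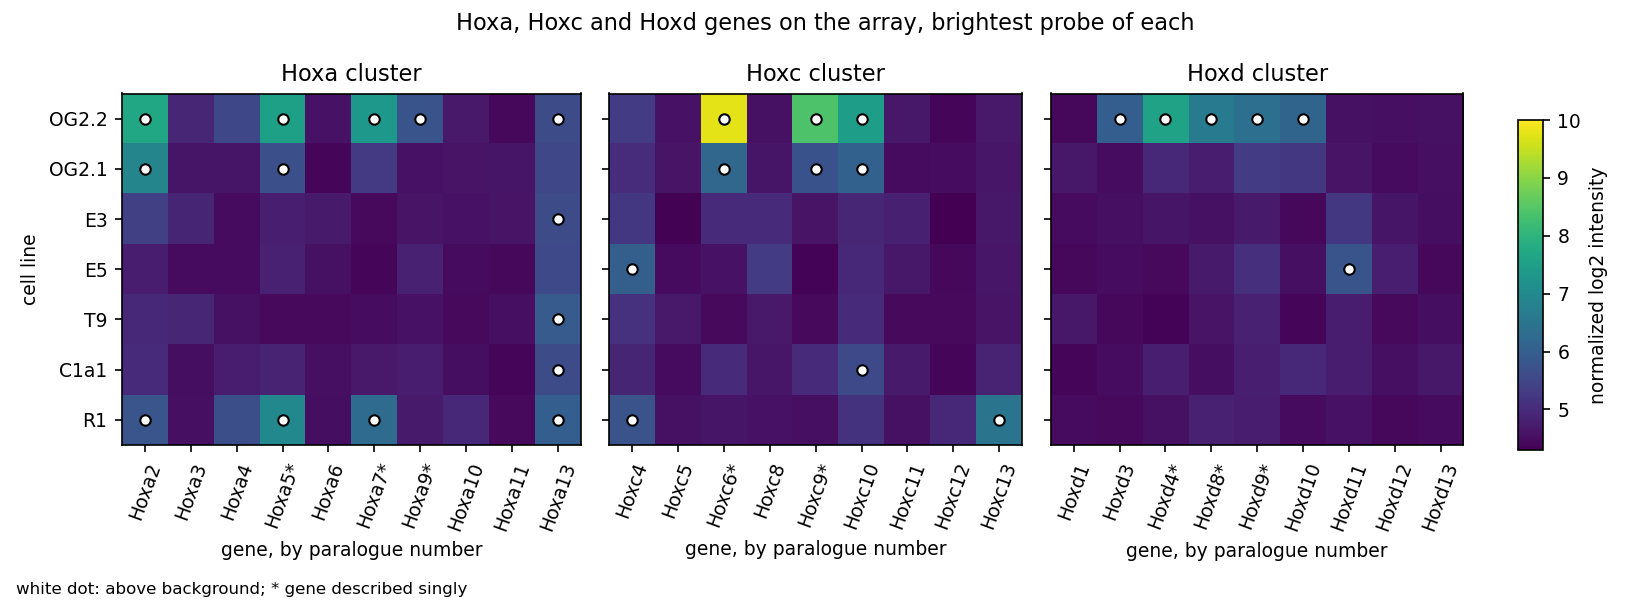
Normalized log2 intensity (colour) of 28 Hoxa, Hoxc and Hoxd genes on the array, ordered by paralogue number within each cluster, on each of the 7 arrays, with a white dot where the brightest probe was above background and an asterisk on the 8 genes described singly. OG2.2 has 13 dots, more than any other array, and its Hoxd dots run unbroken from Hoxd3 to Hoxd10.

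Of the 20 other Hoxa, Hoxc and Hoxd genes on the array, 8 were tested. Hoxc13, known for hair follicles, was the 1 called gene, in the EpiSC and ESC comparison: it was 4.68 ± 0.09 in EpiSCs (SD, n = 6) and below background in all 6, against 6.50 in R1 (difference -1.82, SE 0.22, limma adjusted p = 0.00123; at least 1.92-fold lower). Hoxc13 passed the detection filter through R1 alone, so its lower level in EpiSCs follows from that filter. None of the 8 was called in the comparisons between EpiSC lines. Hoxa2, which acts in the hindbrain, measured 7.73 in OG2.2 and differed from the other 5 lines by 2.34, and Hoxc10 measured 7.50 and differed by 2.21. In the Hoxb cluster, 7 of 10 genes were above background in OG2.2, 2 in OG2.1, 1 in R1 and 0 in the rest. Of those 7, Hoxb1, Hoxb4, Hoxb6 and Hoxb9 passed the detection filter through OG2.2 alone, so their higher level there follows from the filter, and none of the 7 was called.

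The partners of Hox proteins are the PBX and MEIS factors, which bind DNA together with them. Of 7 tested cofactor genes, Pbx3 was higher in EpiSCs than in R1 (7.01 ± 0.07, SD, n = 6, against 5.86; difference 1.15, SE 0.21, limma adjusted p = 0.00883), and the other 6 were not called. Meis2 was the 1 cofactor gene called in OG2.1 and OG2.2 against the other 4 lines (difference 3.39, SE 0.32, limma adjusted p = 0.0269). It was at 9.83 in OG2.2, 10.29 in OG2.1, 6.86 in E3, 6.69 in E5, 6.05 in T9, 7.09 in C1a1 and 10.41 in R1. The 3 lines with any of the 8 Hox genes above background were thus the 3 highest in Meis2, though Meis2 was higher in OG2.1 than in OG2.2.

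Of 7 tested genes of the caudal factors and posterior signals, 0 were called in any of the 4 comparisons. Cdx2, a caudal factor that acts on trunk Hox genes in the mouse embryo, was at 9.63 in OG2.2, 8.13 in OG2.1, 4.99 in E3, 5.13 in E5, 4.44 in T9, 5.54 in C1a1 and 4.65 in R1. It differed by 3.85 (SE 0.46, limma adjusted p = 0.0601) between OG2.1 with OG2.2 and the other 4 lines, and by 3.99 (SE 1.21, limma adjusted p = 0.757) between OG2.2 and the other 5. R1, with Hoxa5 and Hoxa7 above background, had no Cdx2 above background. Cdx1 was above background in R1 alone, at 6.12.

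Among 12 tested Polycomb genes, which keep Hox clusters silent, Phc2 was higher in EpiSCs than in R1 (9.75 ± 0.46, SD, n = 6, against 7.95; difference 1.80, SE 0.44, limma adjusted p = 0.0297). Eed, a core subunit of the enzyme that writes the silencing mark, was lower in EpiSCs (10.05 ± 0.18 against 11.43; difference -1.39, SE 0.26, limma adjusted p = 0.00918). Of 6 Trithorax genes, which act against Polycomb, Ash2l was lower in EpiSCs (10.42 ± 0.22 against 12.75; difference -2.32, SE 0.27, limma adjusted p = 0.00118). In the comparisons between EpiSC lines, 0 of the 12 and 0 of the 6 were called, and the median difference of OG2.2 from the other 5 was 0.05 and -0.04.

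Markers of other cell types differed between the lines in both directions. Of 7 mesoderm markers on the array, 2 were tested: Meox1, a homeobox gene of the somites, was at 7.82 in OG2.2, 6.05 in OG2.1 and below background elsewhere, and Tbx6 was at 5.87 in OG2.2 and above background also in T9 and C1a1. The summed signal of the 2 was 480 in OG2.2, 289 in OG2.1 and 225 to 272 in the other EpiSC lines, with 219 in R1. Of 11 fibroblast and feeder markers, 6 were tested, and 6 of them were above background in OG2.2, 5 in OG2.1, 3 in E3, 5 in E5, 5 in T9, 4 in C1a1 and 4 in R1. Their summed signal was 3432 in OG2.2, 4107 in OG2.1, 1812 in E3, 4157 in E5, 2424 in T9, 3177 in C1a1 and 1607 in R1. The sum was highest in E5, where 0 of the 8 Hox genes were above background, while Mmp2 (10.55) and Col1a1 (5.99) were highest in OG2.2. Col1a2, Col3a1, Lum, Postn and Pdgfrb were above background on no array. The 3 tested endoderm markers differed between OG2.2 and the other 5 EpiSC lines by a median of -1.51, and none was called. Sox17 and Foxa2 were below background in OG2.2 and E5 and above it in OG2.1, E3, T9 and C1a1. Nes, the 1 neural marker tested, was at 10.12 in OG2.2 and 9.48 to 10.19 in the other EpiSC lines, against 6.62 in R1. The part of any of these cell types in the Hox levels was not tested.

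Outside the Hox genes, 1668 tested genes had a range of at least 2 over the 7 arrays, and Pearson's r with the mean profile of the 8 genes was taken over these 7 arrays as a description. The 10 most alike were H2aj (0.915), a histone variant gene, Ddit4l (0.901), Meox1 (0.897), Arg1 (0.875), the arginase gene, Cdx2 (0.873), Hes5 (0.844), a Notch target, H2-DMb1 (0.841), Mllt3 (0.837), Mpp6 (0.834) and Crabp1 (0.824), which encodes a retinoic acid binding protein. All 10 were highest in OG2.2 and second highest in OG2.1. The mean profile itself had this order (7.43 in OG2.2 and 5.30 in OG2.1), so it follows largely from how the 10 were picked. Without OG2.2 the r was 0.907 for Ddit4l, 0.856 for Mllt3 and 0.737 for H2aj, but 0.407 for Meox1, 0.385 for Hes5 and 0.0883 for H2-DMb1, so that for these last the likeness rests on 1 array. H2aj had a level of 7.42 in OG2.2, 6.28 in OG2.1, and 4.46 to 4.82 in the other lines. Ddit4l was at 9.58 in OG2.2, 8.64 in OG2.1 and 8.57 in R1, and 7.35 to 7.63 in the other 4.

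**Figure D4:**
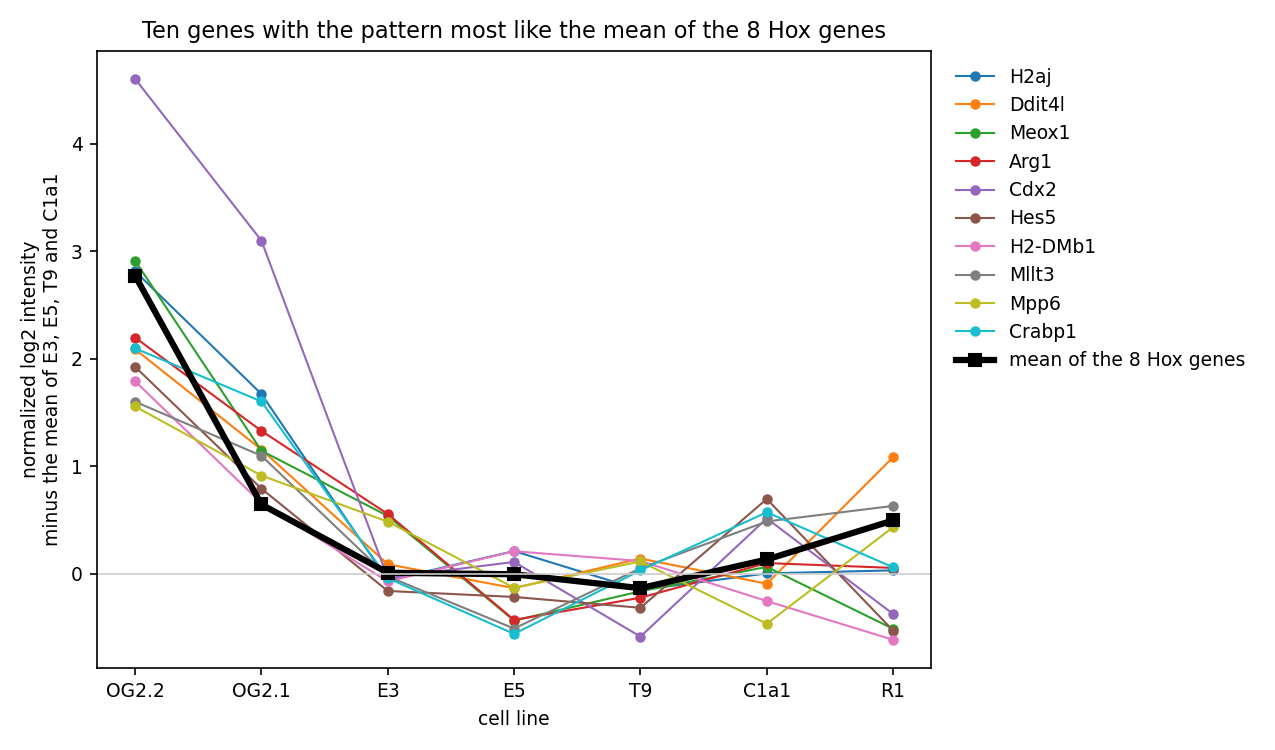
Normalized log2 intensity minus the mean of E3, E5, T9 and C1a1 (vertical axis) on each of the 7 arrays, for the mean of the 8 Hox genes (black) and the 10 genes with the most similar pattern. All lines in the plot peak at OG2.2, and Cdx2 stands the furthest above the other 4 EpiSC lines in OG2.2 and OG2.1.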

How the data were processed

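Each of 7 lines gave 1 array. Per the labels, 1-colour biotin-labelled cRNA was hybridized. The deposited intensity values are raw probe signals, summarised over beads and linear in scale, and per the file headers a deposited detection p-value accompanies each. The authors also deposited log2 values, quantile normalized between the arrays as their equal distributions show. Per the submitters' processing notes, BeadStudio 3.2, lumi and RMA were used. Their settings and the order of their steps were not given in the sources used here. The deposited log2 columns matched the signal of their own array (r of deviations at least 0.820, against at most 0.233 for other arrays), and 0 pairs of arrays were identical.

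Intensities were background corrected and quantile normalized with neqc (limma 3.58.1, R 4.3.3, offset 16). Of 25697 probes, the 13396 whose detection p fell under 0.01 on some array were kept. The probe table gave 1 symbol for 23978 probes, several for 0 and none for 1719. The brightest kept probe stood for each gene, which left 9213 genes. Limma (lmFit and eBayes, 2-sided, Benjamini-Hochberg over all 9213, threshold 0.05) was fitted per comparison and tested on simulated data. The number of arrays limits the precision. Slide and scan were not given, so no such batch could be set against the lines. Where every line of one side was below background, a fold is a lower bound, taken against the lowest normalized value of a detected probe on each array or the value of the dim probe where that is higher.

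Members, lists and comparisons were chosen with earlier results of these data known. Named were all 8 genes, the 10 most similar in pattern with a range of at least 2, and, from each list of Hox, cofactor, caudal, Polycomb and Trithorax genes, the called genes or, with none, up to 3 of the largest differences. Cdx1, the detected genes of the 3 clusters and the cell markers were named after their values were seen. Promoter windows came from RefSeq (GRCm38.p6). Alternatives were the authors' log2 values, signals without background correction, scaling by medians, no filter on detection or a detection p under 0.05, the mean of probes, every probe, a trended robust variance, EpiSC arrays normalized alone and leaving out each line.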

Additional observations from a re-analysis of the deposited data

Results flagged for a closer look

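For 7 of the 8 genes the OG2.2 array stood apart from the other 5 EpiSC lines by Dixon's ratio, the gap to the nearest line over the whole range, set against the 95% critical value for 6 samples. The OG2.2 levels (normalized log2) were 7.34 for Hoxa7 (ratio 0.698), 5.78 for Hoxa9 (0.786), 9.77 for Hoxc6 (0.674) and 8.41 for Hoxc9 (0.660). They were 7.58 for Hoxd4 (0.819), 6.65 for Hoxd8 (0.901) and 6.39 for Hoxd9 (0.656). Hoxa5 had a ratio of 0.60 and stayed under the critical value. For Hoxa9, Hoxd4, Hoxd8 and Hoxd9 the detection filter had already required a high OG2.2 level. Chance alone marks about 1 in 20 groups. Over all 9213 genes 7.93% had a line that stood apart in this way, and for 1.17% that line was OG2.2.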

How the results depend on the processing

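The median difference of the 8 genes depended on how values near background were treated. For OG2.2 against the other 5 lines it was 2.66, and 4.10 with the deposited log2 values and 1.12 with no background correction. For OG2.1 with OG2.2 against the other 4 it was 1.76, against 3.03 and 0.73, and for OG2.1 alone 0.60, against 1.52 and 0.23. Leaving out 1 line at a time, it ran from 0.60 (without OG2.2) to 2.83 (without OG2.1) for the OG2 pair. Called among the 8 genes were 0 to 2 for EpiSCs against R1, with 2 reached without OG2.2. They were 0 to 5 for OG2.2 against the other 5 and 0 to 5 for the OG2 pair, with 5 reached without OG2.1 in each. Called among all genes were 0 to 14 for OG2.2 (14 without OG2.1). For the OG2 pair the count of 7 became 4 with no background correction and 2 with no detection filter, and leaving out a line gave 3 (without E3 or T9) to 30 (without C1a1), with 14 without OG2.1 and 4 without OG2.2 or E5. For OG2.1 alone the count of 4 became 0 (without E3 or T9) to 17 (without C1a1). At a detection p under 0.05, OG2.1 had 5 of the 8 genes above background in place of 3. The sign of near-zero values turned without OG2.2, for Hoxa9 (-0.048, range to 0.19 without other lines) and Hoxd8 (-0.20) in EpiSCs against R1, and for Hoxa9 in the OG2 pair (-0.11, range to 1.09). It turned also for single Hoxa9 probes, at -0.014 in EpiSCs against R1, -0.080 in OG2.2 and 0.35 in OG2.1. Of 106 values of single genes under the alternatives for OG2.2 against the other 5 lines, 105 were positive. The causes were not tested. No paired analysis was possible because each line was sampled once and every column header carries the same replicate number.

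With 1 array per line, an effect of a line and an effect of its culture or array cannot be told apart, and R1 stands alone for ESCs. Values below background have no reliable order, which touches every one of the 8 genes in E3, E5, T9 and C1a1. Hoxa9 rests on 1 of 3 probes.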
